A study of Mus musculus with 6 samples.

Results

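The mouse miRNA precursors miR-325, miR-339, miR-6540 and miR-3061 are described here by the levels of their 5p and 3p arms. They make up 8 of the 685 mature miRNAs listed in every library, and 4 of the 187 precursors with both arms listed. They were chosen by a measured value, the change of the ratio of their arms between RSL3 and DMSO libraries of this same study. The values of that contrast are therefore given as a description, with no test of their own. Small RNA was sequenced from N2a, a line grown from a mouse neuroblastoma, after the cells were turned toward a neuron-like state with 10 µM retinoic acid in low serum over 96 h. The 3 treated libraries came from such cells given 5 µM RSL3 for 24 h. The 3 control libraries came from such cells given its solvent DMSO for 24 h. RSL3 inhibits GPX4, the enzyme that reduces lipid peroxides in membranes, and is used to induce ferroptosis, an iron-dependent form of cell death. All 6 libraries thus share the cell line and the retinoic acid, and the labels do not say whether replicates were separate cultures.

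A miRNA precursor is a hairpin that Drosha and Dicer cut into a short duplex. The strand from the 5′ side of the hairpin is the 5p arm, and the strand from the 3′ side is the 3p arm. Usually one arm is loaded into an Argonaute protein and guides it to target mRNAs through its seed, bases 2 to 8, while the other is degraded. The choice depends in part on how firmly each end of the duplex is paired and on the first base of the arm, and some precursors yield both arms in quantity. A shift between arms changes which seed a precursor contributes, without any change in its transcription being needed.

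The mature sequences below show that the arms of miR-325, miR-339 and miR-3061 carry different seeds, which are in capitals. They come from RefSeq on GRCm38.p6 and are written 5′ to 3′. A sequence was found there for 7 of the 8 arms, the other one being mmu-miR-6540-5p.
mmu-miR-325-5p: cCUAGUAGgugcucaguaagugu
mmu-miR-325-3p: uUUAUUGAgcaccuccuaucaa
mmu-miR-339-5p: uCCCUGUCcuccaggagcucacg
mmu-miR-339-3p: uGAGCGCCucggcgacagagccg
mmu-miR-6540-3p: uCUGAAGCuugcuuaccucca
mmu-miR-3061-5p: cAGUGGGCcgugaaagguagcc
mmu-miR-3061-3p: cUACCUUUgauaguccacugcc

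None of these 7 seeds was found in another listed miRNA, among the 554 listed entries with a sequence in that table. The first base was U in miR-325-3p, in both arms of miR-339 and in miR-6540-3p, and C in miR-325-5p and both arms of miR-3061. Over 130 precursors with both sequences known, the more abundant arm began with U in 53.1% and the less abundant arm in 24.6%. The GC content was 36.4% in miR-325-3p and 73.9% in miR-339-3p, the extremes of the 7 arms.

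The hairpins show where each arm lies. Capitals mark the mature arms, which for miR-6540 is the 3p arm.
Mir325 hairpin: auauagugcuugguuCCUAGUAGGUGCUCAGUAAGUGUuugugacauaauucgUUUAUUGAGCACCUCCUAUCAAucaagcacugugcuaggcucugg
Mir339 hairpin: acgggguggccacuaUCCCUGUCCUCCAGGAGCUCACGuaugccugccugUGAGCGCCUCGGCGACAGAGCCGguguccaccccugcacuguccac
Mir6540 hairpin: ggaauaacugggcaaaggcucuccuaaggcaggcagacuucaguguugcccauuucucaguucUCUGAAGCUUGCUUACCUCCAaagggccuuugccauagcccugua

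In the structure of lowest energy that RNAfold gave for the Mir325 hairpin (-42.4 kcal/mol), the first 4 bases of the 3p arm held 0 G-C pairs, 3 A-U pairs and 1 G-U pair. Those of the 5p arm held 0 G-C pairs, 2 A-U pairs and 2 unpaired bases. In the Mir339 hairpin (-43.8 kcal/mol) the first 4 bases of the 3p arm held 2 G-C and 2 A-U pairs, and those of the 5p arm held 2 G-C pairs and 2 unpaired bases. In the Mir3061 hairpin (-65.4 kcal/mol) the first 4 bases of each arm held 2 G-C and 2 A-U pairs. So by this count the ends of the miR-3061 duplex were alike, and the 5p end had more unpaired bases in miR-325 and miR-339. These are predictions from sequence, not measurements.

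The 4 precursors lie on 4 chromosomes of GRCm38, and no member lies near another. Mir325 is at chrX:105379082-105379179 on the minus strand, in an intron of the long non-coding RNA gene 5330434G04Rik on the same strand. Mir339 is at chr5:139369650-139369745 on the minus strand, in an intron of the protein-coding gene 3110082I17Rik on the same strand. Mir6540 is at chr16:42303362-42303469 on the minus strand, in an intron of Gap43 on the same strand. Gap43 encodes a growth cone protein that marks neurons extending neurites. Mir3061 is at chr11:52126746-52126836 on the plus strand, inside the 3′ untranslated exon of Ppp2ca, which encodes a catalytic subunit of protein phosphatase 2A. It also lies antisense to an exon of 9430098F02Rik and to an intron of Gm26551, both long non-coding RNA genes. Host transcripts were not measured in these small RNA libraries.

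The deposited values are reads scaled to a common library size with TMM factors (edgeR's library scaling), written here as CPM. The listed miRNAs held 3406276 to 4989380 recovered reads in RSL3 libraries and 4306460 to 6058006 in DMSO libraries, so 1 read was worth 0.157 to 0.314 CPM. The neuron markers miR-124-3p, miR-9, miR-128-3p, miR-137-3p, miR-138-5p and miR-218-5p were all listed. The 7 arms summed to 19588 to 24960 CPM in RSL3 libraries and 21443 to 25517 CPM in DMSO libraries, mostly as miR-218-5p. Among them miR-124-3p, the most neuron-restricted, was at 135 to 221 CPM. Markers of endothelium, fibroblast or smooth muscle summed to 36271 to 37372 CPM in RSL3 libraries and 35296 to 38297 CPM in DMSO libraries, mostly as miR-143-3p. Muscle markers summed to 68.8 to 129 CPM in RSL3 and 105 to 193 CPM in DMSO libraries, epithelial markers to 353 to 442 CPM in RSL3 and 392 to 456 CPM in DMSO libraries, and glial markers to 139 to 185 CPM in RSL3 and 133 to 175 CPM in DMSO libraries. In the muscle, epithelial and glial sums, too, a single marker held most of the CPM. The liver marker miR-122-5p was at 2.41 to 5.96 CPM in RSL3 and 1.41 to 3.54 CPM in DMSO libraries. Of 4 blood markers miR-451a was listed, at 60.5 to 115 CPM in RSL3 libraries and 58.8 to 88.2 CPM in DMSO libraries. The part of these markers in the arm ratios was not tested.

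Between the groups, miR-325, miR-339 and miR-6540 had a smaller share of 5p reads in RSL3 libraries, and miR-3061 a larger one. The log2 ratio of 5p to 3p, each with 1 CPM added, differed by -1.03 for miR-325, -1.03 for miR-339, -1.07 for miR-6540 and 0.82 for miR-3061, RSL3 minus DMSO. Over the 182 precursors tested the median was -0.05 and the range -1.48 to 0.92. In each of the 4 precursors the mean differences of the arms had opposite signs. A large difference of the ratio favours opposite signs, and the precursors were chosen on that ratio, so nothing is read from this. The share of reads on an arm does not depend on how a library was scaled, whereas the log2 ratio does to a small extent through the 1 CPM added, most for miR-3061. Adapter ligation depends on sequence, so the ratio is one of reads and not of molecules. In RNA from a whole culture, fewer cells of a kind and less RNA per cell cannot be told apart.

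The higher arm of miR-325 was not the same one in every library. The 5p arm (mmu-miR-325-5p) was at 68.4, 63.1 and 63.6 CPM in RSL3 libraries 1 to 3, against 83.1, 68.4 and 84.8 CPM in DMSO libraries 1 to 3. The groups met at 68.4 CPM, where RSL3 library 1 and DMSO library 2 coincided, and the other libraries were on separate sides. The 3p arm (mmu-miR-325-3p) was at 63.0, 98.5 and 88.2 CPM in RSL3 libraries, against 49.4, 40.8 and 53.7 CPM in DMSO libraries. Here all 3 RSL3 libraries were above all 3 DMSO libraries, with RSL3 library 1 the nearest to the controls.

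As means, miR-325-5p was at 65.0 ± 2.92 CPM in RSL3 libraries and 78.7 ± 9.04 CPM in DMSO libraries (SD, n = 3 each), a difference of -0.27 on the log2(CPM + 1) scale. For miR-325-3p the means were 83.3 ± 18.3 CPM in RSL3 libraries and 48.0 ± 6.56 CPM in DMSO libraries, a difference of 0.77 on that scale. That was the 11th most positive of 666 miRNAs tested, and the 3p arm held the larger part of the difference in the ratio. The log2 ratio was 0.12, -0.64 and -0.47 in RSL3 libraries, against 0.74, 0.73 and 0.65 in DMSO libraries. The higher arm was therefore 3p in RSL3 libraries 2 and 3, and 5p in RSL3 library 1 and in the 3 DMSO libraries. The sum of both arms was 148 ± 15.4 CPM in RSL3 libraries and 127 ± 15.5 CPM in DMSO libraries, and these groups overlapped.

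**Figure D1:**
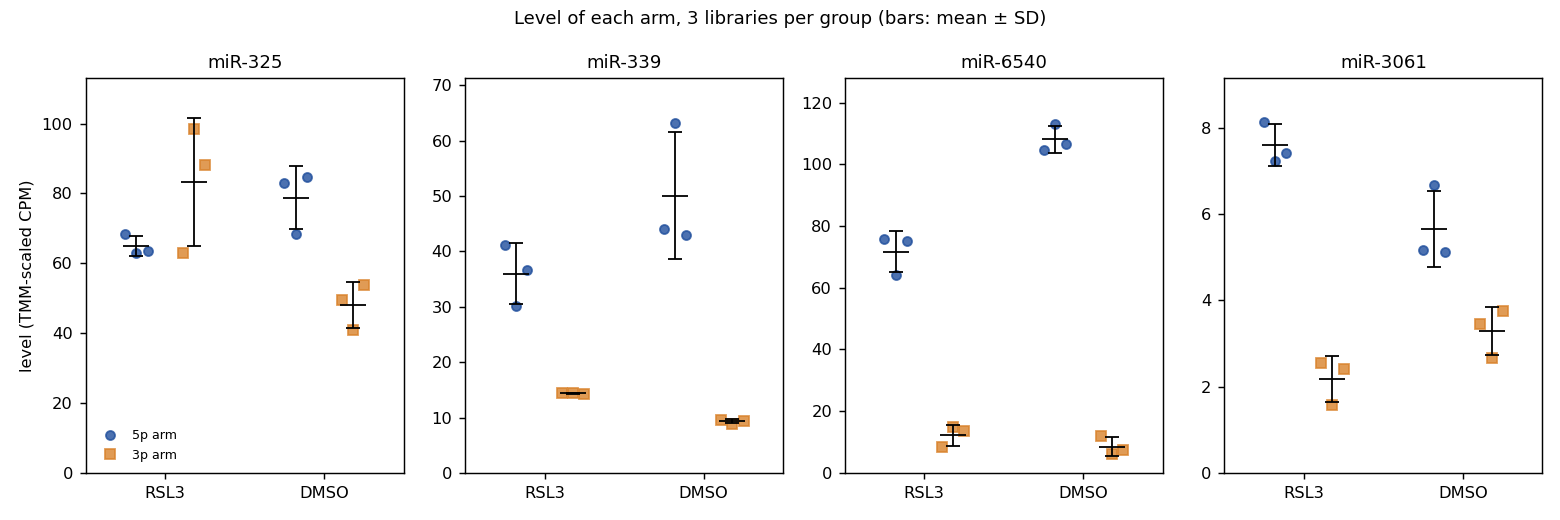
Level of the 5p arm (circles) and 3p arm (squares) of each precursor, in TMM-scaled CPM, with 3 RSL3 libraries left of 3 DMSO libraries; black bars are mean ± SD and each panel has its own axis from 0. The 3p arm of miR-325 averaged 83.3 CPM in RSL3 libraries and 48.0 CPM in DMSO libraries, while the 5p arm of miR-6540 averaged 71.7 CPM in RSL3 libraries and 108 CPM in DMSO libraries.

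Reads set the precision of these shares. In miR-325, 52.0% of reads were on the 5p arm in RSL3 library 1 (exact 95% binomial interval 47.6% to 56.4%, 517 reads), 39.0% in library 2 (34.8% to 43.4%, 515 reads) and 41.9% in library 3 (38.3% to 45.5%, 757 reads). In DMSO libraries 1 to 3 the share was 62.7% (59.4% to 66.0%, 845 reads), 62.6% (58.2% to 66.9%, 492 reads) and 61.2% (57.5% to 64.8%, 704 reads). None of the 9 pairings of an RSL3 with a DMSO library had overlapping intervals. The DMSO libraries differed from each other by less than their intervals, whereas RSL3 library 1 lay apart from the other RSL3 libraries. These intervals cover counting error only, since reads amplified by PCR need not be independent molecules.

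miR-339 is made in many tissues, and its 5p arm has been reported to lower the β-secretase BACE1 in human brain cells. The 5p arm (mmu-miR-339-5p) was at 41.2, 30.1 and 36.7 CPM in RSL3 libraries 1 to 3, against 44.0, 63.3 and 42.9 CPM in DMSO libraries 1 to 3. The groups did not overlap, although RSL3 library 1 and DMSO library 3 lay close together and DMSO library 2 was far above the rest. The 3p arm (mmu-miR-339-3p) was at 14.5, 14.4 and 14.2 CPM in RSL3 libraries, against 9.56, 8.88 and 9.45 CPM in DMSO libraries. All RSL3 libraries were above all DMSO libraries. The SD was 0.13 CPM in RSL3 and 0.37 CPM in DMSO libraries, less than the counting error of 40 to 71 reads, which comes to 1.69 to 2.13 CPM in RSL3 and 1.22 to 1.40 CPM in DMSO libraries, so the SD understates the uncertainty.

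The difference was -0.45 for miR-339-5p and 0.58 for miR-339-3p on the log2(CPM + 1) scale, so both arms contributed to the difference in the ratio. The log2 ratio was 1.45, 1.01 and 1.31 in RSL3 libraries, against 2.09, 2.70 and 2.07 in DMSO libraries, without overlap. In all 6 libraries more reads came from the 5p arm. Its share of reads was 71.2 ± 3.27% in RSL3 libraries and 83.9 ± 3.25% in DMSO libraries (SD, n = 3 each), on 142 to 254 reads per RSL3 library and 266 to 342 reads per DMSO library. Of the 9 pairings of an RSL3 with a DMSO library, 3 had overlapping binomial intervals. The sum of both arms was 50.4 ± 5.57 CPM in RSL3 libraries and 59.4 ± 11.1 CPM in DMSO libraries, with overlap.

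miR-6540, from the Gap43 intron, had the largest negative difference of a 5p arm among the 4 precursors. The 5p arm (mmu-miR-6540-5p) was at 75.7, 64.0 and 75.2 CPM in RSL3 libraries 1 to 3, against 105, 113 and 107 CPM in DMSO libraries 1 to 3. All RSL3 libraries were well below all DMSO libraries, and the difference on the log2(CPM + 1) scale was -0.59, the 18th most negative of 666 miRNAs. The 3p arm (mmu-miR-6540-3p) was at 8.39, 14.7 and 13.6 CPM in RSL3 libraries, against 11.9, 6.21 and 7.48 CPM in DMSO libraries. Here the groups overlapped, because RSL3 library 1 was below DMSO library 1, and the difference was 0.48.

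The log2 ratio of miR-6540 was 3.03, 2.05 and 2.38 in RSL3 libraries, against 3.03, 3.98 and 3.67 in DMSO libraries. Library 1 of RSL3 and library 1 of DMSO thus had the same ratio to 2 decimals, and the groups touched there. The 5p share was 85.3 ± 4.42% in RSL3 libraries and 92.7 ± 2.60% in DMSO libraries, on 251 to 443 reads per RSL3 library and 537 to 743 reads per DMSO library. Of the 9 pairings of an RSL3 with a DMSO library, 4 had overlapping binomial intervals, and the share in RSL3 library 1 (90.0%) was above that in DMSO library 1 (89.8%). The sum of both arms was 83.9 ± 5.04 CPM in RSL3 libraries and 117 ± 2.52 CPM in DMSO libraries, without overlap. It was thus the precursor whose summed level differed most, by -28.0%, since the 5p arm carried most of the reads.

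miR-3061 differed in the other direction and was the lowest of the 4 precursors. Its 5p arm had 23 to 37 reads per library and its 3p arm 5 to 22. The 5p arm (mmu-miR-3061-5p) was at 8.13, 7.22 and 7.42 CPM in RSL3 libraries 1 to 3, against 5.17, 6.66 and 5.12 CPM in DMSO libraries 1 to 3. The 3p arm (mmu-miR-3061-3p) was at 2.54, 1.57 and 2.41 CPM in RSL3 libraries, against 3.45, 2.66 and 3.74 CPM in DMSO libraries. Neither arm overlapped between groups, but the gaps were 0.56 CPM for 5p and 0.12 CPM for 3p, each worth a few reads or less.

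As reads, the 3p arm of miR-3061 had 10, 5 and 12 in RSL3 libraries, against 22, 12 and 19 in DMSO libraries. The log2 ratio was 1.37, 1.68 and 1.31 in RSL3 libraries, against 0.47, 1.06 and 0.37 in DMSO libraries. The 5p share was 76.2% (exact 95% binomial interval 60.5% to 88.0%), 82.1% (63.1% to 93.9%) and 75.5% (61.1% to 86.7%) in RSL3 libraries. It was 60.0% (45.9% to 73.0%), 71.4% (55.4% to 84.3%) and 57.8% (42.2% to 72.3%) in DMSO libraries. All 9 pairings of an RSL3 with a DMSO library had overlapping intervals. The counts are too small to place the size of the difference closely in any 1 library. The summed level was 9.76 ± 0.95 CPM in RSL3 libraries and 8.93 ± 0.36 CPM in DMSO libraries.

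**Figure D2:**
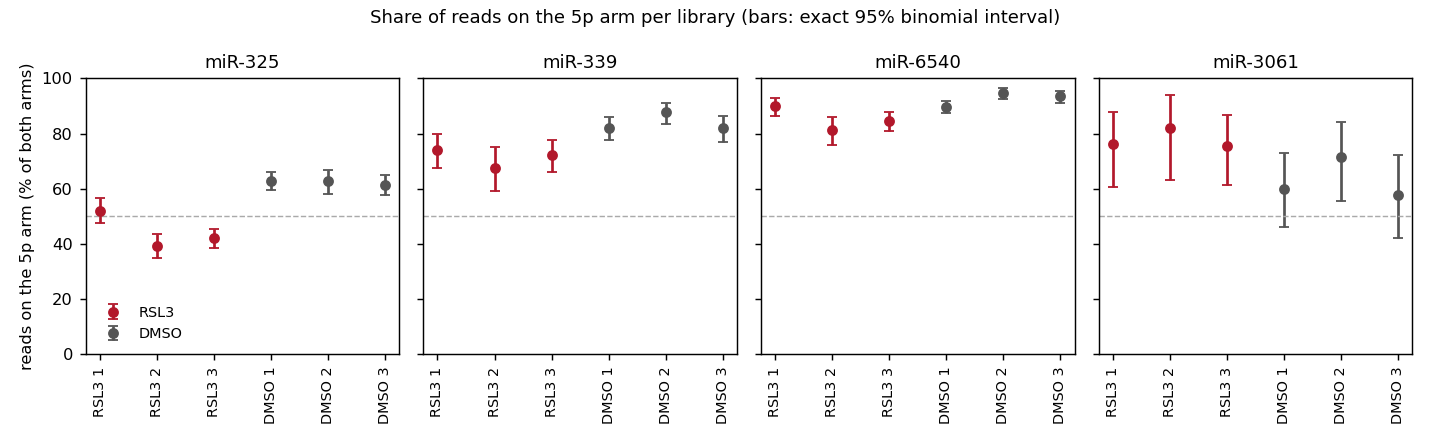
Share of reads on the 5p arm (% of the reads of both arms) in each library, RSL3 in red and DMSO in grey, with exact 95% binomial intervals; the dashed line marks an even split. The RSL3 shares of miR-325 lie between 39.0% and 52.0% and its DMSO shares between 61.2% and 62.7%, while the intervals of miR-3061 overlap throughout.

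Over all precursors, limma at an adjusted p under 0.05 called 3 of 182 toward 3p (1.65%), and miR-325 was 1 of these. This contrast chose the precursors, so nothing is read from that count. The call of miR-325 was kept without RSL3 library 1 and lost when any other single library was left out. The arm ratio of the groups did not overlap toward 3p in 27 precursors (14.8%), with miR-325 and miR-339 among them, nor toward 5p in 17 (9.34%), with miR-3061 among them. At the level of single miRNAs, limma called 4 higher and 1 lower of 666 (0.751%) and 0 of the 8 arms. An unadjusted p under 0.05 was reached by 4 of the 8 arms and by 115 of the 666 miRNAs (17.3%). In edgeR, 6 of 666 miRNAs (0.901%) and 0 of the 8 arms were called. DESeq2 called 36 of the 433 miRNAs to which it gave an adjusted p (8.31%), and 2 of the 6 arms among these, miR-325-3p (higher) and miR-6540-5p (lower). Nothing is read from these counts either. Without overlap, 82 of 666 miRNAs were higher in RSL3 libraries (12.3%), and these included miR-325-3p, miR-339-3p and miR-3061-5p. Another 80 were lower without overlap (12%), and these included miR-339-5p, miR-6540-5p and miR-3061-3p. Both arms were free of overlap and differed in opposite directions in 6 precursors (3.3%), of which miR-339 and miR-3061 were 2.

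**Figure D3:**
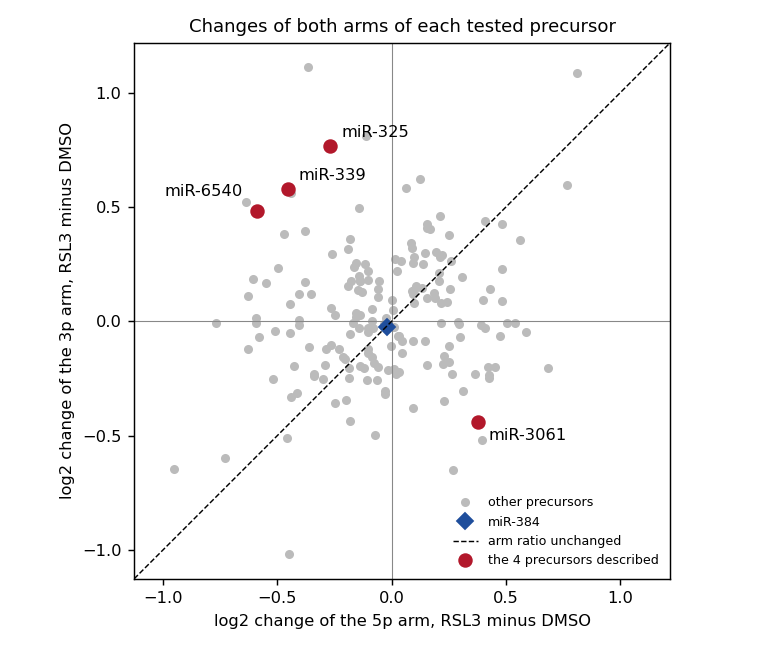
Change of the 3p arm (y) against change of the 5p arm (x) on the log2(CPM + 1) scale, RSL3 minus DMSO, for the 182 tested precursors; on the dashed line the arm ratio is unchanged. miR-325, miR-339 and miR-6540 lie at upper left, with 5p changes of -0.27, -0.45 and -0.59, and miR-3061 lies at lower right (0.38 and -0.44).

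The balance of the arms averaged over both groups did not enter the choice of the 4 precursors and was tested with limma over all 182. The 5p arm was higher for miR-6540, by 3.02 ± 0.15 on the log2 scale (SE, limma adjusted p = 3.88e-10, 5p higher in 6 of 6 libraries). It was higher for miR-339, by 1.77 ± 0.12 (limma adjusted p = 1.38e-08, 6 of 6 libraries), and for miR-3061, by 1.04 ± 0.16 (limma adjusted p = 3.24e-05, 6 of 6 libraries). For miR-325 the mean was 0.19 ± 0.11 (limma adjusted p = 0.11), with 5p higher in 4 of 6 libraries. This value averages groups of opposite sign, at -0.33 ± 0.39 in RSL3 libraries and 0.71 ± 0.05 in DMSO libraries (SD, n = 3 each), and so does not describe either group. It reached a limma adjusted p of 0.042 without RSL3 library 2, at 0.27. Most precursors had an uneven balance, with 5p higher in 88 (48.4%) and 3p higher in 85 (46.7%).

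**Figure D4:**
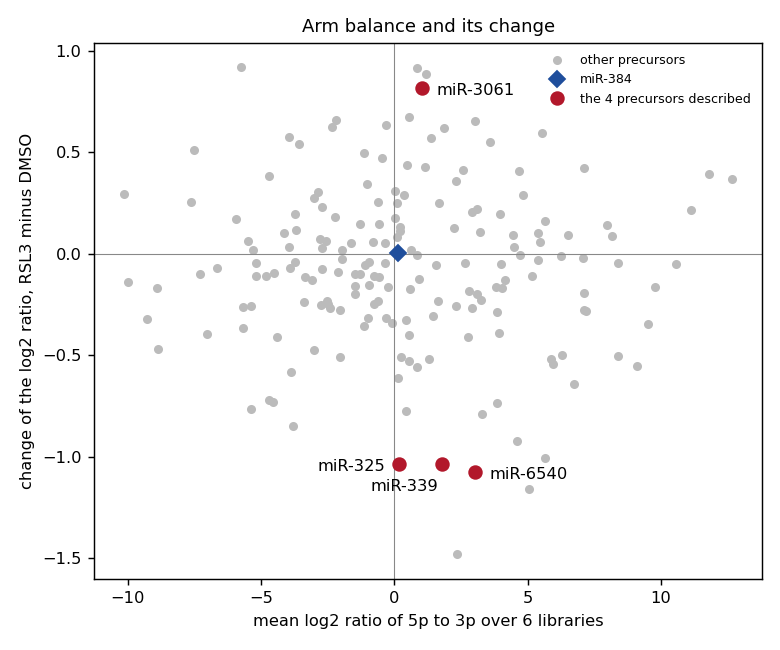
Change of the log2 arm ratio, RSL3 minus DMSO (y), against its mean over 6 libraries (x), for the 182 tested precursors. miR-325 lies at 0.19, an average of groups of opposite sign, miR-339 and miR-6540 at 1.77 and 3.02 on the side where 5p is higher, and miR-3061 at 1.04.

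A single other precursor lies within 100 kb of the 4, namely Mir384 at chrX:105344282-105344369, 34.7 kb from Mir325 on the same strand and outside the genes annotated there. Among the 554 listed entries with a sequence, its 5p arm shares its seed with miR-30a-5p, miR-30c-5p and miR-30e-5p. Listed entries without a sequence could not be compared. Its arms were nearly even in both groups, with a mean log2 ratio of 0.13 ± 0.11 (SE, limma adjusted p = 0.25). miR-384-5p was at 25.9, 28.9 and 25.7 CPM in RSL3 libraries, against 26.2, 25.7 and 29.7 CPM in DMSO libraries. miR-384-3p was at 24.9, 24.8 and 23.3 CPM in RSL3 libraries, against 20.7, 28.4 and 25.8 CPM in DMSO libraries. The groups overlapped in both arms.

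The log2 difference was -0.02 ± 0.16 for miR-384-5p (SE, limma adjusted p = 0.97), -0.03 ± 0.17 for miR-384-3p (limma adjusted p = 0.96) and 0.01 ± 0.22 for their log2 ratio (limma adjusted p = 0.99). Values this near 0 changed sign with the scaling or when a library was left out. The 5p share of miR-384 was 52.4 ± 1.40% in RSL3 libraries and 52.3 ± 4.29% in DMSO libraries, while that of miR-325 was 44.3 ± 6.83% in RSL3 libraries and 62.2 ± 0.83% in DMSO libraries. A difference between the changes of miR-325 and miR-384 was not tested.

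**Figure D5:**
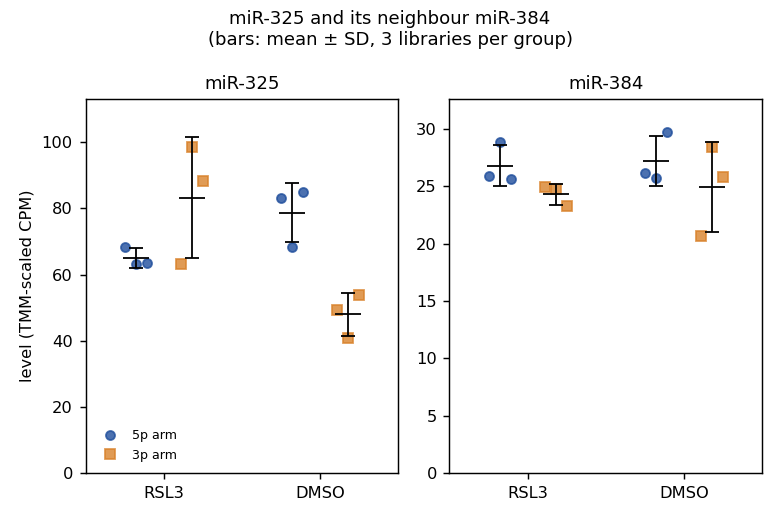
Levels of the 5p (circles) and 3p (squares) arms of miR-325 and of its neighbour miR-384, in TMM-scaled CPM, RSL3 left of DMSO, with mean ± SD of 3 libraries. The miR-384 arms average 26.8 and 24.3 CPM in RSL3 libraries and 27.2 and 25.0 CPM in DMSO libraries.

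Across the 6 libraries, the arm-ratio profiles nearest to those of the 4 precursors were found by the root mean square difference of log2 ratios, each centred on its mean. The nearest to miR-325 was miR-126a, an endothelial miRNA, at 0.13, followed by miR-339 at 0.24. The nearest to miR-339 were miR-126a at 0.22 and miR-325 at 0.24. For miR-6540 they were miR-151 at 0.19 and miR-339 at 0.26, and for miR-3061 miR-671 at 0.16 and miR-199b at 0.23. The median distance over the other 181 precursors was 0.56 to 0.70. miR-325, miR-339 and miR-6540 were chosen with changes of nearly the same size, so their nearness to each other follows from that choice. The profiles contain the group difference that chose the 4 precursors, so any precursor with a like change comes out near. That change was -0.85 for miR-126a, -0.73 for miR-151, 0.63 for miR-671 and 0.58 for miR-199b. Nothing is read from these distances. Among RSL3 libraries, library 1 had the highest ratio in miR-325, miR-339 and miR-6540, and library 2 the lowest. In miR-3061 the highest RSL3 ratio was that of library 2.

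A list of 14 other precursors known for functional 5p and 3p arms was set beside them. Of the 12 tested, 0 passed in limma, and 3 had an unadjusted p under 0.05, a share close to that over all precursors (41 of 182, 22.5%). The median change was -0.11, with 7 negative and 5 positive values. The 3 under that p were miR-126a (-0.85 ± 0.22 SE, limma adjusted p = 0.080), miR-151 (-0.73 ± 0.26, limma adjusted p = 0.14) and miR-30e (-0.40 ± 0.16, limma adjusted p = 0.16). With a pseudocount of 5 CPM, with a 10 CPM filter, and without RSL3 library 1, miR-126a passed. The arm ratio of miR-324, a precursor known for a switch of arms under terminal uridylation, differed by 0.15 ± 0.29 (limma adjusted p = 0.84), with overlapping groups.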

How the data were processed

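Reads were processed with cutadapt, Bowtie and edgeR against GRCm38, per the submitters' processing notes. Versions, settings and miRNA annotation are not given in the sources. The authors deposited one signal per mature miRNA and library, named CPM. Within each library all values were multiples of one smallest unit (100% within 0.01 read), so whole reads were recovered. Sums of 949374.8 to 1068891.9 show a scaling beyond plain CPM.

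The members and lists were chosen with earlier results of these data known. Levels were tested as log2(CPM + 1) for 666 of 685 miRNAs with at least 1 CPM in 3 libraries, and ratios for 182 of 187 precursors whose arms both passed, which all 8 members did. Tests used limma 3.58.1 in R 4.3.3, two-sided, with a variance trend over mean level and Benjamini-Hochberg adjustment at 0.05. Alternatives included edgeR 4.0.16 and DESeq2 1.42.0 on recovered reads. The code was checked on simulated data. Named are the members, precursors within 100 kb, entries sharing bases 2 to 8, the 2 nearest ratio profiles, and the called or 3 lowest-p list precursors; miR-324, miR-143-3p and miR-122-5p were named outside this rule, after their values were seen. No entry had reads within 1% of a member's in all libraries. Hairpins were folded with RNAfold 2.7.2, and hosts taken from GENCODE M21. P-values measure the spread between these libraries, which may be technical.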

Additional observations from a re-analysis of the deposited data

How the results depend on the processing

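The arm-ratio changes of miR-325, miR-339 and miR-6540 kept their direction and moved by less than 1 SD under every alternative run. Their ranges were -1.26 to -0.88, -1.14 to -0.83 and -1.35 to -0.85. The filter, variance trend and replicate block settings could not move these mean differences. Leaving out 1 library could not move them by as much as 1 SD either. Only the other pseudocounts and the reads summed within a group could have done so. For miR-325 and miR-339 the groups did not overlap, so leaving out 1 library could not change the sign. That of miR-3061 fell to 0.45 with a pseudocount of 5 CPM, as its level is of that order, and lay between 0.68 and 1.03 without 1 library. The level change of miR-3061-3p was -0.21 with that pseudocount. The level change of miR-339-3p, whose SD is below counting error, was 0.44 with a pseudocount of 5 CPM, 0.63 with median centring, 0.53 after rescaling without the 5 most abundant miRNAs, 0.62 in edgeR and 0.63 in DESeq2. No level change of the 8 arms changed sign. Except in miR-325-5p and miR-6540-3p the groups did not overlap, so leaving out 1 library could not change the sign. Nor could the filter, variance trend or replicate block settings in any arm. The balance of miR-325 lay between 0.077 and 0.27 without 1 library. Near 0, miR-384-5p became 0.027 with median centring, 0.0036 with quantile normalization and -0.071 to 0.044 without 1 library; miR-384-3p became 0.021 with median centring and -0.15 to 0.071 without 1 library, and the miR-384 ratio change ran from -0.13 to 0.10.

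For precursors past the threshold of the arm-ratio test, 3 as reported, a pseudocount of 5 CPM gave 12 and a 10 CPM filter gave 8 (miR-3061 was then not tested). A trend over the mean ratio and no trend gave 5 each, and leaving out 1 library gave 1 to 3. Of the members, miR-325, miR-339 and miR-6540 passed with that pseudocount and with that filter. Under either trend setting miR-325 and miR-339 passed. This contrast chose the members, so nothing is read from these calls. Calls of higher miRNAs, 4 as reported, numbered 1 with no trend, 17 by DESeq2, and between 1 and 14 without 1 library. Calls of lower miRNAs, 1 as reported, numbered 3 with a 10 CPM filter, 12 after that rescaling, 0 with no trend, 2 by edgeR, 19 by DESeq2, and between 0 and 12 without 1 library. Why these counts moved was not tested.

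Libraries with the same replicate number deviated weakly in opposite directions (r = -0.347, -0.33 and -0.186 across miRNAs), so no shared replicate effect was seen. With 3 libraries per group this cannot show whether the samples were paired, and the labels do not say. With the replicate block, 1 precursor had a changed arm ratio (miR-467e, no member, so the call of miR-325 was lost). In that fit 1 miRNA was called higher and 0 lower. At 3 libraries per group the mean differences are the same with and without the block. The read depth limits miR-3061 most, at 5 to 37 reads per arm and library.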
